A study of Homo sapiens with 15 samples.

Results

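Integrins are the receptors through which a cell grips the matrix around it, and 10 of their subunit genes were followed across the conditions of the study: ITGB1, ITGB3, ITGB5, ITGAV, ITGA2, ITGA3, ITGA4, ITGA5, ITGA6 and ITGA11. The members were taken by gene symbol from the deposited table of 37787 genes, and all 10 were found there. Of these, 9 passed the filter on low counts and were tested among 13868 genes. Beside empty vectors, 6 of the 9 were lower in at least 1 condition, by modest amounts, and ITGA5 was lower in every one of the 4 transfected conditions. Of all tested genes, 9.82% were called lower in at least 1 of these conditions and 1.21% in all 4. Between FOXL2 C134W and FOXL2 WT no member was called, while 10 of 29 tested genes of matrix ligands were called higher there, against 11.2% of all genes called and 7.13% called higher. With offsets fitted to transcript length in each library, 2 to 3 members were called lower in that comparison, given without the share of all genes. DESeq2 with transcript length offsets called none there.

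An integrin is a heterodimer of an alpha and a beta chain, and the alpha chain largely sets which matrix protein is bound. ITGB1 pairs with ITGA2 and ITGA11 to bind collagen, with ITGA3 and ITGA6 to bind laminin, with ITGA5 to bind fibronectin and with ITGA4 to bind fibronectin and the adhesion molecule VCAM1. ITGAV pairs with ITGB1, ITGB3 or ITGB5 and reads the RGD motif of vitronectin and related ligands. Talin and kindlin switch integrins on from the cytoplasm, and adaptors such as paxillin and vinculin then tie them to actin. In the ovary, granulosa cells lie on a basal lamina rich in laminin and type IV collagen.

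The cells were HGrC1, an immortalized granulosa line of human origin that is not luteinized and whose own FOXL2 is normal, used at passage 14. Cells were lipofected for 4 h and then kept for 24 h without serum, with 3 replicates (A, B and C) in each of 5 conditions. Vectors received empty plasmids. FOXL2 WT received wild-type FOXL2 with SMAD3, and FOXL2 C134W received the granulosa cell tumor mutant of FOXL2 with SMAD3. FOXL2 WT + FOXO1 and FOXL2 C134W + FOXO1 received in addition FOXO1-3A, a constitutively active form of FOXO1. SMAD3 plasmid was thus in every condition but Vectors, so an effect of SMAD3 and an effect of FOXL2 against Vectors cannot be told apart. Nothing states that replicates were separate cultures, so p-values measure the spread between these libraries. In bulk RNA, fewer cells with a transcript and less of it per cell cannot be told apart.

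Library totals ran from 14962245 to 25339094 estimated counts. The level of a gene in a library is its CPM, a count divided by the TMM-scaled library size, and genes with an edgeR adjusted p under 0.05 over all 13868 genes are referred to as called. The FOXL2 transcript averaged 561 ± 5.89 CPM (SD, n = 3) with the wild-type plasmids and 147 ± 27.0 CPM with the mutant, beside 8.73 ± 0.704 CPM with empty vectors, and SMAD3 averaged 2768 ± 154 CPM with the wild type against 843 ± 37.4 CPM with the mutant. The comparison of mutant with wild type is therefore also a comparison of less with more FOXL2 and SMAD3 transcript, which cannot be told apart. With FOXO1-3A added, FOXL2 averaged 384 CPM on the wild type and 152 CPM on the mutant, and SMAD3 averaged 969 and 392 CPM. An effect of FOXO1-3A and an effect of the lower SMAD3 transcript beside it cannot be told apart. Among the defining granulosa markers, FSHR was at 0 in all 15 libraries, CYP19A1 reached at most 0.167 CPM and AMH at most 1.94 CPM. GATA4, a listed granulosa marker outside the defining ones, lay between 129 and 154 CPM. The other listed granulosa markers, FOXL2 apart, are given only in the sum below. Of other cell types, PTPRC of leukocytes reached at most 0.247 CPM and CYP17A1 of theca cells at most 0.0430 CPM, CDH1 of epithelia at most 0.523 CPM and EPCAM at most 7.72 CPM. The endothelial markers PECAM1 and CDH5 reached at most 2.31 and 4.598 CPM. The summed level of all 4 endothelial markers, mostly KDR, ran from 19.2 to 22.5 CPM in Vectors and from 13.1 to 18.0 CPM over the other conditions. The 6 leukocyte markers summed to 105 to 118 CPM in Vectors and 90.8 to 99.1 CPM elsewhere, nearly all of it CD68, a lysosomal protein, at 103 to 117 CPM in Vectors and 88.8 to 97.7 CPM elsewhere. The other 5 leukocyte markers each reached at most 1.58 CPM. The 4 epithelial markers, mostly KRT7, summed to 1542 to 1749 CPM in Vectors and to 1829 to 2341 CPM elsewhere. Against Vectors, the endothelial and leukocyte sums were thus lower and the epithelial sum was higher. The part of these 3 sums in the lower integrin levels described next was not tested. Platelet and megakaryocyte markers summed to at most 1.01 CPM and theca markers to at most 0.202 CPM. The 15 granulosa markers, FOXL2 among them, summed to 295 to 303 CPM in Vectors and 405 to 844 CPM elsewhere. These sums hold the transfected FOXL2 transcript. In FOXL2 WT the median sum was 837 CPM with FOXL2 at 561 CPM, and in Vectors it was 302 CPM with FOXL2 at 8.73 CPM. A sum without FOXL2 was not computed.

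Set side by side per transcript length, as TPM summed over the transcripts of a gene, the subunits covered a wide range of levels. ITGB1, the common beta chain, averaged 554 TPM over the 15 libraries (476.8 to 619 TPM), and ITGA3, a laminin receptor chain, averaged 464 TPM (402 to 523 TPM). These ranges overlapped, and the genes exchanged first and second rank between libraries. ITGA5, the fibronectin receptor chain, followed at 201 TPM, then ITGB5 at 136 TPM, ITGAV at 70.0 TPM and ITGB3 at 32.4 TPM, each with the same rank in every library. ITGA2 at 24.1 TPM (19.4 to 28.8 TPM) and ITGA6 at 22.9 TPM (18.9 to 30.8 TPM) did not differ beyond their spread and exchanged the seventh and eighth rank. ITGA11, a collagen receptor chain, was ninth at 12.4 TPM.

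Short transcript models raise some of these TPM sums. The 351-base model ITGA3-213 alone carried 99.4 TPM of ITGA3, and in Vectors the 670-base model ITGA11-203 carried 44.2% ± 8.30 (SD, n = 3) of ITGA11. The TPM of ITGB5 was split over many models, of which the largest, ITGB5-206, held 25.9% ± 1.14 in Vectors. ITGA5, by contrast, was mostly ITGA5-201 (93.0% ± 1.40), ITGB3 mostly ITGB3-201 (96.4% ± 1.14) and ITGA2 mostly ITGA2-201 (90.1% ± 0.255).

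ITGA4 (chr2:181457202-181538940, plus strand), whose dimer with ITGB1 is best known from lymphocytes, was the member not tested. It had between 0 and 3 counts in every library, at or under the floor of 3 counts that a count of 0 allows, so no fold is given. Of the leukocyte subunits outside the members, ITGAL reached at most 0.129 CPM, ITGAM at most 0.385 CPM and ITGB2 at most 0.516 CPM, while ITGAX ran from 0.543 to 1.79 CPM and ITGAE from 9.90 to 13.2 CPM. VCAM1, a ligand of ITGA4, was at 1.00, 0.939 and 0.520 CPM in Vectors (13 to 23 counts). It was called lower in FOXL2 WT, at 0.213, 0.403 and 0.171 CPM (0.310 times the Vectors level, edgeR adjusted p = 0.0433), and in FOXL2 C134W, at 0.158, 0.334 and 0.369 CPM (0.353 times, edgeR adjusted p = 0.0287). Its counts in these 2 conditions were 4 to 8, and the groups did not overlap Vectors, beside 31.1% and 31.8% of all tested genes.

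**Figure D1:**
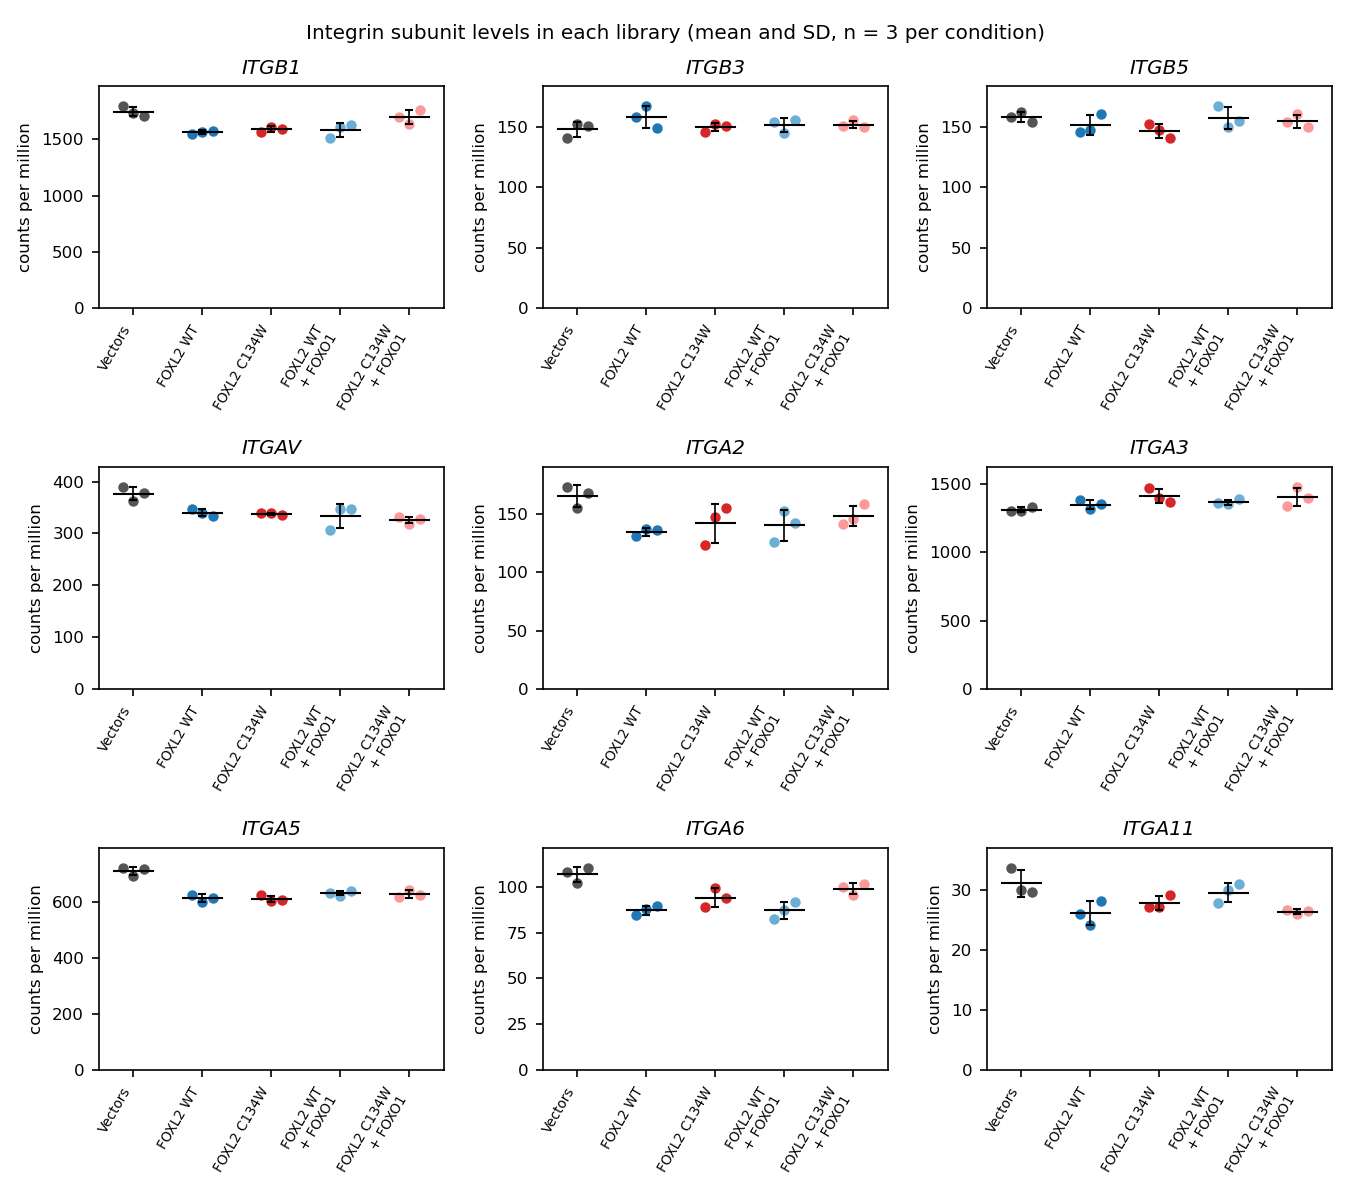
Level of each tested integrin subunit in CPM (vertical axis, from 0) in the 3 libraries of each of the 5 conditions, with points for libraries, a line for the mean and bars for the SD. ITGA5 in the 3 Vectors libraries lies between 694 and 722 CPM, above all 12 other libraries, while ITGB3 lies between 141 and 167 CPM in all libraries.

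The first comparisons set each transfected condition beside Vectors, and they ask how the delivered factors changed the integrin repertoire. All 4 share the same Vectors libraries, so they are not independent of each other. In FOXL2 WT, 5 of the 9 tested members were called and all 5 were lower, against 6.07% of all tested genes called and 3.61% called lower. In FOXL2 C134W, 4 were called, all lower, against 14.7% called and 7.24% called lower. In FOXL2 WT + FOXO1, 4 were called, all lower, against 3.78% and 2.37%. In FOXL2 C134W + FOXO1, 3 were called, all lower, against 9.33% and 5.16%. The median log2 fold change of the 9 members was -0.16, -0.16, -0.14 and -0.11 in that order, while the median over all genes did not exceed 0.0043 in any. In the same order, 6, 7, 6 and 5 members did not overlap Vectors, beside 31.1%, 31.8%, 22.7% and 28.4% of all tested genes.

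The fibronectin receptor chain ITGA5 (chr12:54395261-54419266, minus strand) was the member called in all 4 comparisons. Its level in Vectors was 722, 694 and 720 CPM in replicates A, B and C. In FOXL2 WT it was 628, 601 and 615 CPM, and in FOXL2 C134W it was 624, 604.5 and 607 CPM. With FOXO1 it was 634, 624 and 640.3 CPM on the wild type and 618.5, 644 and 625 CPM on the mutant. Every transfected library was below every Vectors library, and the 4 transfected conditions overlapped each other. The log2 fold change against Vectors was -0.21 (SE 0.03, edgeR adjusted p = 0.000662) in FOXL2 WT and -0.22 (SE 0.03, edgeR adjusted p = 0.000186) in FOXL2 C134W. With FOXO1 it was -0.17 (SE 0.03, edgeR adjusted p = 0.00551) and -0.18 (SE 0.03, edgeR adjusted p = 0.00161). These 4 calls held under all 10 alternative settings and when any single library was left out, with adjusted p of at most 0.0371.

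ITGA6 (chr2:172427354-172506459, plus strand), a laminin receptor chain that pairs with ITGB1 or ITGB4, was called in 3 of the 4 comparisons. Vectors libraries held 108, 102 and 110 CPM, and FOXL2 WT libraries 84.7, 87.7 and 89.4 CPM. FOXL2 C134W libraries held 89.0, 99.5 and 93.8 CPM, and those of FOXL2 WT + FOXO1 82.5, 87.5 and 91.7 CPM. FOXL2 C134W + FOXO1 was nearest to Vectors, at 99.8, 95.5 and 101 CPM. No transfected library reached the lowest Vectors library. ITGA6 fell by 0.29 on the log2 scale in FOXL2 WT (SE 0.05, edgeR adjusted p = 0.00179), by 0.29 in FOXL2 WT + FOXO1 (SE 0.05, edgeR adjusted p = 0.00243) and by 0.18 in FOXL2 C134W (SE 0.05, edgeR adjusted p = 0.0171). In FOXL2 C134W + FOXO1 the value was -0.11 and was not called (edgeR adjusted p = 0.176), though 3 settings with length offsets called it (edgeR adjusted p from 0.0114 to 0.0426). The call in FOXL2 C134W was lost without Vectors replicate A, Vectors replicate C or FOXL2 C134W replicate A, where the values of the 6 reduced fits ran from -0.23 to -0.14 and the adjusted p reached 0.10. DESeq2 with transcript length offsets called neither FOXL2 C134W (adjusted p = 0.12) nor FOXL2 WT + FOXO1 (adjusted p = 0.318).

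ITGB1 (chr10:32887273-33005792, minus strand), the beta chain that most of the alpha members need, followed a similar course at a much higher level. It was at 1794, 1732 and 1711 CPM in Vectors and at 1549.8, 1567 and 1576 CPM in FOXL2 WT. It was at 1560.5, 1613 and 1591 CPM in FOXL2 C134W and at 1513.0, 1608 and 1625 CPM in FOXL2 WT + FOXO1. In these 3 conditions every library lay below Vectors, whereas FOXL2 C134W + FOXO1, at 1699, 1634.5 and 1758 CPM, overlapped Vectors. The log2 fold change was -0.16 in FOXL2 WT (SE 0.04, edgeR adjusted p = 0.0131), -0.14 in FOXL2 C134W (SE 0.04, edgeR adjusted p = 0.0146) and -0.14 in FOXL2 WT + FOXO1 (SE 0.04, edgeR adjusted p = 0.0316). In FOXL2 C134W + FOXO1 it was -0.04 (95% interval -0.12 to 0.03, edgeR adjusted p = 0.55). The call in FOXL2 WT was lost without Vectors replicate A, FOXL2 WT replicate A or FOXL2 WT replicate B (adjusted p up to 0.0895), and that in FOXL2 C134W without Vectors replicate A (adjusted p = 0.0697). In FOXL2 WT + FOXO1 it was kept only without FOXL2 WT + FOXO1 replicate C, and reached an adjusted p of 0.17 without one of the other 5 libraries, with values from -0.16 to -0.11. That call was also lost in a fit of only the libraries compared (edgeR adjusted p = 0.0821).

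ITGAV (chr2:186590010-186680901, plus strand), the alpha chain of the vitronectin receptors, was at 389, 363 and 378 CPM in Vectors. It was at 347, 340.2 and 333 CPM in FOXL2 WT, at 338.5, 339 and 336 CPM in FOXL2 C134W, at 307, 347 and 348 CPM in FOXL2 WT + FOXO1, and at 331, 319 and 328.5 CPM in FOXL2 C134W + FOXO1. All 12 transfected libraries were below the 3 Vectors libraries. It fell by 0.16 on the log2 scale in FOXL2 C134W (SE 0.04, edgeR adjusted p = 0.02), by 0.17 in FOXL2 WT + FOXO1 (SE 0.04, edgeR adjusted p = 0.0316) and by 0.21 in FOXL2 C134W + FOXO1 (SE 0.04, edgeR adjusted p = 0.00488). In FOXL2 WT the value of -0.15 was just over the threshold (edgeR adjusted p = 0.0531), and 5 of the 10 alternative settings called it lower (adjusted p down to 0.0116). Leaving out Vectors replicate A, Vectors replicate C, FOXL2 C134W replicate B or FOXL2 C134W replicate C ended the call in FOXL2 C134W (adjusted p up to 0.0895), and leaving out Vectors replicate A, Vectors replicate C or FOXL2 WT + FOXO1 replicate A ended that in FOXL2 WT + FOXO1 (adjusted p up to 0.17). DESeq2 with transcript length offsets made none of these 3 calls, with adjusted p of 0.146, 0.266 and 0.367. The call in FOXL2 WT + FOXO1 was also lost in a fit of only the libraries compared (edgeR adjusted p = 0.108) and with GC and length offsets (edgeR adjusted p = 0.129).

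The collagen receptor chains ITGA2 (chr5:52989340-53094779, plus strand) and ITGA11 (chr15:68296532-68432163, minus strand) were called in fewer conditions. ITGA2 was at 173, 155 and 168 CPM in Vectors and at 131, 137 and 136.5 CPM in FOXL2 WT, with no overlap and a log2 fold change of -0.30 (SE 0.08, edgeR adjusted p = 0.0273). FOXL2 C134W libraries held 123, 148 and 155 CPM of ITGA2, those of FOXL2 WT + FOXO1 126, 153 and 142 CPM and those of FOXL2 C134W + FOXO1 142, 145 and 158 CPM. These values scattered widely within a condition, and the log2 fold changes of -0.22, -0.23 and -0.16 were not called (edgeR adjusted p = 0.0581, 0.1 and 0.219). Of the 10 alternative settings, 6, 5 and 4 called ITGA2 lower in these 3 conditions, the length offset among them in each, and in FOXL2 C134W the value reached -0.33 with the block and length offset. ITGA11 was at 33.7, 30.0 and 29.8 CPM in Vectors, 26.1, 24.2 and 28.3 CPM in FOXL2 WT, and 26.8, 26.0 and 26.6 CPM in FOXL2 C134W + FOXO1. Neither of these conditions overlapped Vectors, and the log2 fold changes were -0.24 (SE 0.07, edgeR adjusted p = 0.0422) and -0.24 (SE 0.07, edgeR adjusted p = 0.0317). In FOXL2 C134W ITGA11 was at 27.2, 27.3 and 29.2 CPM (log2 fold change -0.16, edgeR adjusted p = 0.122), and in FOXL2 WT + FOXO1 at 27.9, 30.0 and 31.0 CPM (-0.07, edgeR adjusted p = 0.666). The ITGA2 call held only without Vectors replicate B and otherwise reached an adjusted p of 0.139, with values from -0.34 to -0.26, and it was lost with transcript length offsets in DESeq2 (adjusted p = 0.0741). The ITGA11 call in FOXL2 WT held only without FOXL2 WT replicate C (adjusted p up to 0.24 without any other library), and in FOXL2 C134W + FOXO1 it was lost without Vectors replicate A or any library of FOXL2 C134W + FOXO1 (adjusted p up to 0.167). With transcript length offsets in DESeq2, the ITGA11 difference in FOXL2 WT grew to -0.70 and stayed called, and that in FOXL2 C134W grew to -0.52 and was called (adjusted p = 0.00589). These offsets use estimated transcript shares. The 567-base model ITGA11-205 held 25.6%, 0% and 33.4% of ITGA11 TPM in Vectors, 0%, 31.4% and 18.8% in FOXL2 WT and 41.9%, 34.4% and 0% in FOXL2 C134W. The protein-coding ITGA11-201 averaged 3.15, 2.77 and 3.03 TPM in these conditions. The part of such shares in the offset values was not tested. GC and length offsets called ITGA11 in FOXL2 C134W too, at -0.19 (edgeR adjusted p = 0.0388).

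ITGB3 (chr17:47253827-47313743, plus strand) and ITGB5 (chr3:124761948-124901418, minus strand), the beta chains that pair with ITGAV, and ITGA3 (chr17:50055968-50090481, plus strand) were called in none of the 4 comparisons. ITGB3 ran from 141 to 152 CPM in Vectors and from 145 to 167 CPM over the transfected libraries. Its log2 fold changes against Vectors were 0.09, 0.02, 0.04 and 0.04, with 95% intervals that together spanned -0.08 to 0.19. ITGB5 ran from 154 to 163 CPM in Vectors and from 141 to 167 CPM elsewhere, with log2 fold changes of -0.06, -0.11, -0.01 and -0.03. ITGA3 ran from 1298 to 1332 CPM in Vectors and from 1312 to 1474 CPM elsewhere, and its values of 0.04, 0.11, 0.06 and 0.10 were positive in each comparison without passing the test (edgeR adjusted p from 0.0697 to 0.594). The 4 values of each gene are in the order wild type, mutant, wild type with FOXO1 and mutant with FOXO1. At unadjusted p under 0.05, ITGA3 passed on the mutant with and without FOXO1, and ITGB5 passed in FOXL2 C134W. For no comparison was the share of all tested genes at that unadjusted level computed. ITGA3 was called higher in FOXL2 C134W by DESeq2 (0.11, adjusted p = 0.038) and in FOXL2 C134W + FOXO1 with GC and length offsets (0.10, edgeR adjusted p = 0.00887), each in 1 of the 10 alternative settings. In the comparisons with Vectors, no other member was called higher under any of them.

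**Figure D2:**
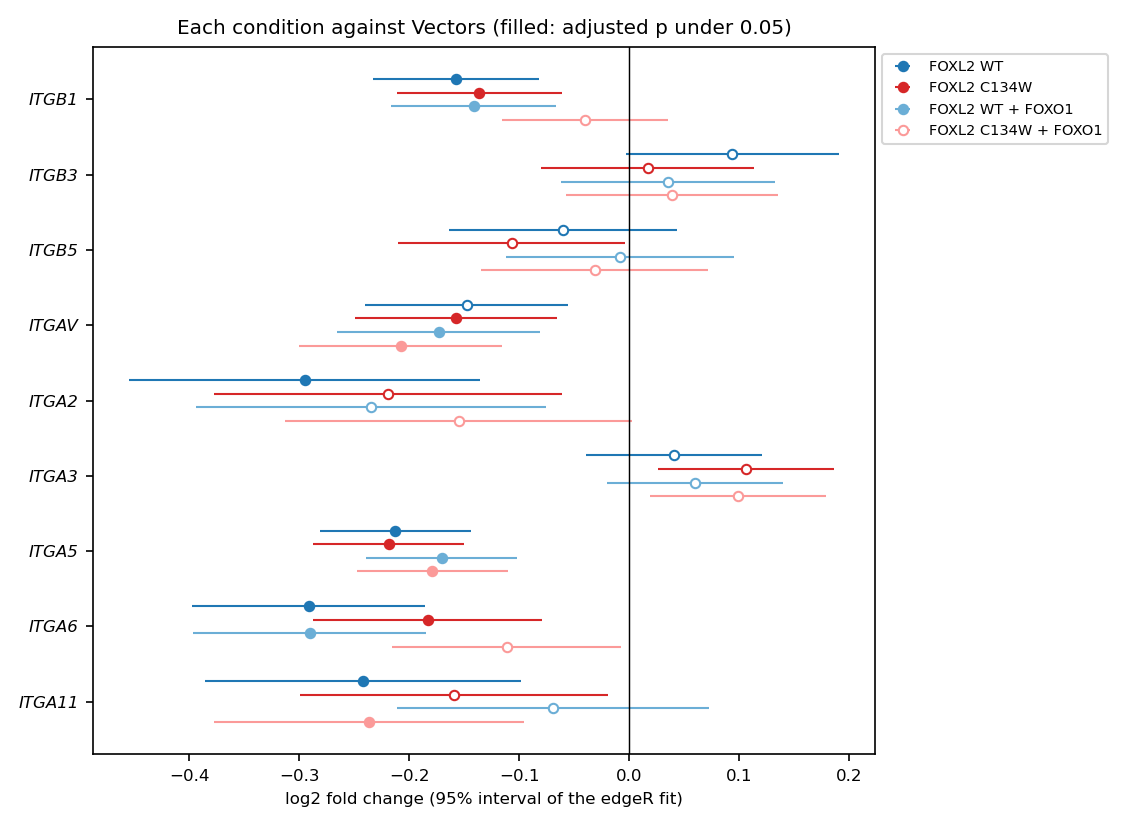
Log2 fold change of the 9 tested integrin subunits against Vectors (horizontal axis, 95% interval of the edgeR fit) in the 4 transfected conditions, with filled points for an adjusted p under 0.05. ITGA5 is filled in all 4 conditions at -0.22 to -0.17, and ITGB3, ITGB5 and ITGA3 are open throughout.

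The stretch upstream of the start site is shown for ITGA5, ITGB1 and ITGAV. These members were called lower in at least 3 of the 4 conditions and have a searched motif in the RefSeq promoter table (GRCh38.p14). ITGA6 was called lower in 3 conditions as well and has an entry, but without any of the searched motifs, and is not shown. A second ITGAV start is included because the share of its transcript is described further on. Capitals mark matches on either strand to CAGAC, the short core bound by SMAD proteins, and TGACTCA, the AP-1 element. Positions count from 1 at the annotated start, with -1 the base before it, and the ITGB1 and first ITGAV stretches stop before other annotated exons.
ITGA5 from -200 to 10, chr12:54419257-54419466, minus strand: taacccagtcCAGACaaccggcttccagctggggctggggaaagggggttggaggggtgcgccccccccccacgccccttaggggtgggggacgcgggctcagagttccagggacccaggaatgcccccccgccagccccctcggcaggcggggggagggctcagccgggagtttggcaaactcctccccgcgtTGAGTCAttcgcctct
ITGB1 from -200 to -96, chr10:32958326-32958430, minus strand: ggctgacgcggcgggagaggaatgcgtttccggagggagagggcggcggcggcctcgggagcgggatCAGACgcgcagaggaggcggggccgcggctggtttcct
ITGAV, start of ITGAV-201, from -200 to -47, chr2:186589856-186590009, plus strand: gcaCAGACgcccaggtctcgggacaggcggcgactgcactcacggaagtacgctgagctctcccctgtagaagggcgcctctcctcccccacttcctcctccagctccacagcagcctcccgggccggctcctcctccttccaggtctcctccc
ITGAV, start of ITGAV-204, from -200 to -1, chr2:186600005-186600204, plus strand: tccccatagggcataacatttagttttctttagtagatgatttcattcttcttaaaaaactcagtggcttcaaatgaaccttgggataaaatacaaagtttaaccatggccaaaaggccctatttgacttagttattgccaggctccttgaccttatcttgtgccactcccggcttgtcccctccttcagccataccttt

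Motifs were searched on both strands from 250 bases before to 50 after each start, and none of the motifs contains another. The table matched 8 of the 10 members, with 13 promoters, and ITGB3 and ITGA3 had no entry. CAGAC was found for ITGA5, ITGB1 and ITGAV, in 4 of the 13 member promoters, beside 45.3% of all 35116 promoters. TGACTCA was found for ITGA5 on the reverse strand, where the printed strand reads TGAGTCA from -6 to 1, beside 4.95% of all promoters. The palindromic SMAD element GTCTAGAC (0.202% of all promoters) and the forkhead core GTAAACA (3.42%) were found in no member promoter. A match of letters is a description and not a bound site.

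Setting FOXL2 C134W beside FOXL2 WT, which asks what the tumor mutation changes, gave no call among the 9 members, against 11.2% of all tested genes called. At an unadjusted p under 0.05 only ITGA6 passed, with 94.1 ± 5.24 CPM in FOXL2 C134W against 87.3 ± 2.37 CPM in FOXL2 WT (log2 fold change 0.11, 95% interval 0.00 to 0.21, edgeR adjusted p = 0.187), and DESeq2 called 0 as well. All 9 members had overlapping libraries, whereas 30.4% of all tested genes did not overlap. ITGA5 differed by -0.01 (95% interval -0.07 to 0.06), ITGB1 by 0.02 (-0.05 to 0.10) and ITGAV by -0.01 (-0.10 to 0.08) on the log2 scale. The widest intervals were those of ITGA2, at 0.08 (-0.08 to 0.24), and ITGA11, at 0.08 (-0.06 to 0.23). The largest negative value was that of ITGB3, at -0.08 (-0.17 to 0.02). ITGA3 stood at 0.07 (-0.01 to 0.15) and ITGB5 at -0.05 (-0.15 to 0.06).

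This comparison carried a trend with transcript length. Over all genes, the log2 fold change of FOXL2 C134W against FOXL2 WT had a Spearman correlation of 0.363 with transcript length, a description across genes that are not independent. Most members are long, from the 31.7th percentile of length for ITGB5 to the 97.8th for ITGA2. With an offset for length in each library, ITGB3 was at -0.20 (edgeR adjusted p = 0.0195) and ITGAV at -0.14 (edgeR adjusted p = 0.0187), both called lower in FOXL2 C134W, and with offsets for GC content and length ITGA5 was called too, at -0.08 (edgeR adjusted p = 0.0395). DESeq2 with transcript length offsets called no member in this comparison. Whether the trend belongs to the libraries or to the condition was not tested.

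With FOXO1 present, FOXL2 C134W + FOXO1 against FOXL2 WT + FOXO1 again gave 0 calls among the 9 members by edgeR or DESeq2, against 0.144% of all tested genes. At an unadjusted p under 0.05, 3 members passed, and the share of all genes at that level was not computed. All 3 were without overlap between the groups, beside 15.2% of all tested genes without overlap. ITGA6 was at 98.9 ± 3.02 CPM on the mutant against 87.2 ± 4.59 CPM on the wild type (log2 fold change 0.18, 95% interval 0.07 to 0.29, edgeR adjusted p = 0.186). ITGB1 was at 1697 ± 61.9 CPM against 1582 ± 60.3 CPM (0.10, 0.03 to 0.18, edgeR adjusted p = 0.251). ITGA11 went the other way, at 26.4 ± 0.410 CPM against 29.6 ± 1.60 CPM (-0.17, -0.31 to -0.02, edgeR adjusted p = 0.301). With the filter of at least 1 count in any library, ITGA6 was called here (edgeR adjusted p = 0.0377). Over the 10 alternatives its value ran from 0.00296 to 0.186, that of ITGB1 from 0.037 to 0.108 and that of ITGA11 from -0.367 to -0.161. Over all genes, the log2 fold change of this comparison had a Spearman correlation of 0.294 with transcript length and -0.251 with GC content. The part of these trends in the values of the members was not tested.

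**Figure D3:**
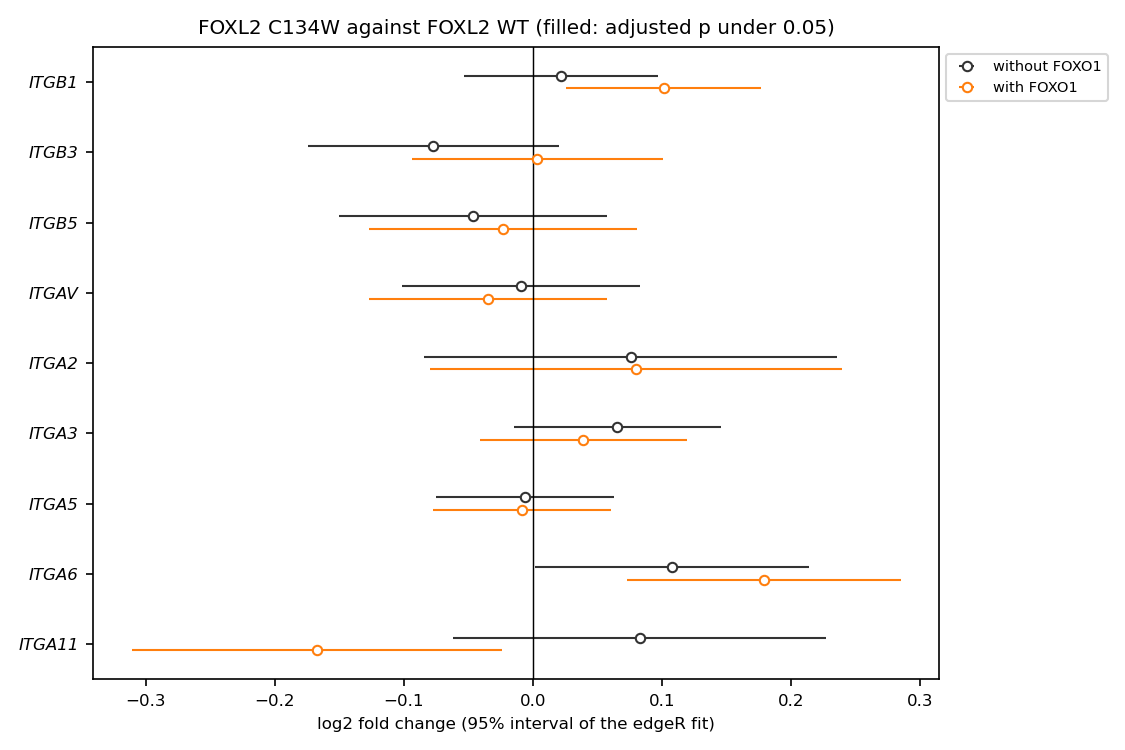
Log2 fold change of FOXL2 C134W over FOXL2 WT (horizontal axis, 95% interval of the edgeR fit) for the 9 tested subunits, without FOXO1 (dark) and with FOXO1 (orange). No point is filled, and without FOXO1 the values lie between -0.08 and 0.11.

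The remaining comparisons asked what FOXO1 adds. FOXL2 C134W + FOXO1 against FOXL2 WT gave no member calls, against 1.69% of all tested genes, with ITGA6 at 0.18 (SE 0.05, edgeR adjusted p = 0.0708) and ITGB1 at 0.12 (SE 0.04, edgeR adjusted p = 0.0939) the only members at an unadjusted p under 0.05. DESeq2 called both of them, each at an adjusted p of 0.0238. FOXL2 WT + FOXO1 against FOXL2 WT gave none, against 0.0505%, with ITGA11 alone at an unadjusted p under 0.05 (0.17, SE 0.07, edgeR adjusted p = 0.489). With transcript length offsets in DESeq2, ITGA11 was called there, at 0.64 (adjusted p = 0.00559), while DESeq2 without them gave it no adjusted p. The estimated share of the short model ITGA11-205 was 37.3%, 34.1% and 30.9% in FOXL2 WT + FOXO1, beside 0%, 31.4% and 18.8% in FOXL2 WT. The part of this share in the value of 0.64 was not tested. FOXL2 C134W + FOXO1 against FOXL2 C134W gave none, against 0.714%, with ITGB1 alone at an unadjusted p under 0.05 (0.10, SE 0.04, edgeR adjusted p = 0.277). The interaction, the effect of FOXO1 on the mutant minus its effect on the wild type, gave none, against 1.38%, and in these last 3 comparisons DESeq2 without such offsets also called 0 members. ITGA11 had the value farthest from 0 there, at -0.25 (95% interval -0.45 to -0.05, unadjusted p = 0.0188, edgeR adjusted p = 0.267). FOXO1 itself reached 117 ± 14.5 CPM on the wild type but 43.2 ± 4.06 CPM on the mutant, so the dose of FOXO1 transcript and the FOXL2 background cannot be told apart in it. SMAD3 transcript was lower with FOXO1 than without it on both backgrounds, so its level cannot be told apart from FOXO1 in these comparisons.

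Below the level of the gene, the transcripts of ITGAV were present in different shares between conditions. ITGAV-201 (chr2:186590056-186680901) is the leading model. ITGAV-204 (chr2:186600205-186677441) starts 10149 bases downstream, at the second ITGAV start printed above, and ends 3460 bases upstream of ITGAV-201. The share of ITGAV-204 in the TPM of the gene was 22.8%, 18.5% and 20.3% in Vectors, 23.4%, 23.8% and 26.2% in FOXL2 WT, and 21.2%, 22.0% and 25.2% in FOXL2 C134W. With FOXO1 the share was 27.2%, 25.9% and 30.4% on the wild type and 29.9%, 32.6% and 29.8% on the mutant. All 3 libraries of FOXL2 C134W + FOXO1 were above those of FOXL2 C134W, while the wild type with FOXO1 overlapped the wild type without it.

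The mean share in FOXL2 C134W + FOXO1 exceeded that in FOXL2 C134W by 7.98 percentage points (exact permutation test, two-sided, p = 0.1, which is as low as 3 libraries against 3 can go). The difference between FOXL2 WT + FOXO1 and FOXL2 WT was 3.37 points (exact permutation test, p = 0.2), and that between FOXL2 WT and Vectors was 3.96 points (exact permutation test, p = 0.1). These are 3 of 5 such comparisons computed, chosen after the values were seen, and none can pass 0.05. The TPM of ITGAV-201 was 57.7 ± 2.94 in Vectors, 52.1 ± 1.08 with the mutant and 46.6 ± 1.84 with the mutant and FOXO1, whereas that of ITGAV-204 was 15.5 ± 2.50, 15.7 ± 1.55 and 21.5 ± 1.15. Shares of transcripts that overlap over most of their exons are estimates of salmon from single-end reads, and reads do not mark a start site. With transcript length offsets in DESeq2, which use these estimated shares, all 3 ITGAV calls against Vectors were lost. Calls of ITGA6 in FOXL2 C134W and FOXL2 WT + FOXO1 and of ITGA2 in FOXL2 WT were lost there too. The part of the ITGAV-204 share in the ITGAV values was not tested.

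**Figure D4:**
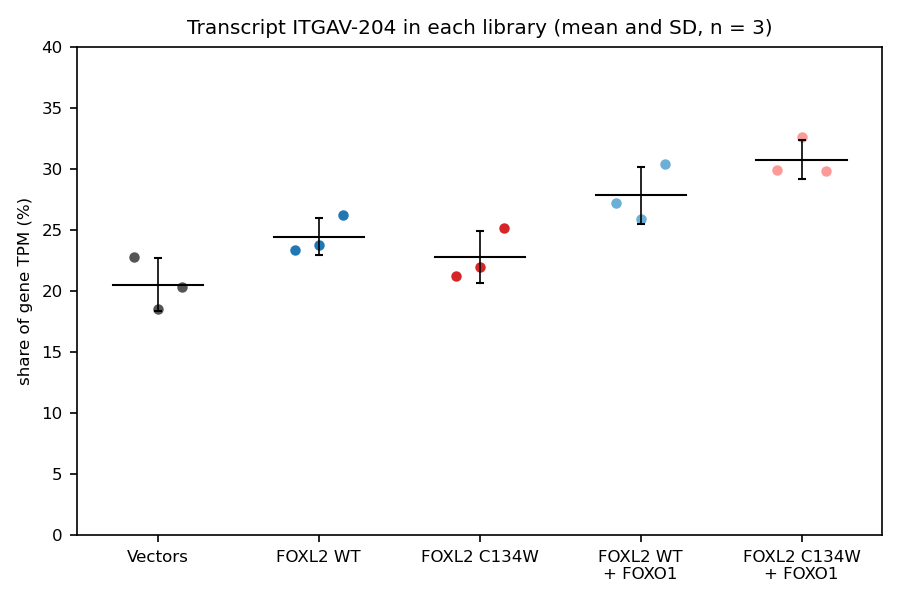
Share of the transcript ITGAV-204 in the TPM of ITGAV (vertical axis, percent) in the 3 libraries of each condition, with the mean as a line and the SD as bars. The shares lie between 18.5% and 22.8% in Vectors and between 29.8% and 32.6% in FOXL2 C134W + FOXO1.

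Of 16 integrin subunits outside the 10 members, 8 were tested and the other 8 reached at most 0.516 CPM. Among the tested, ITGA1 averaged 102 CPM in Vectors, ITGB8 17.4 CPM, ITGA7 12.5 CPM and ITGAE 12.1 CPM, and only ITGA1, a further collagen receptor chain, was called against Vectors. ITGA1 was at 97.3 to 107 CPM in Vectors and 78.5 to 83.8 CPM in FOXL2 WT, a log2 fold change of -0.34 (SE 0.07, edgeR adjusted p = 0.00825), and was at -0.36 in FOXL2 C134W (SE 0.07, edgeR adjusted p = 0.00176) and -0.28 in FOXL2 C134W + FOXO1 (SE 0.07, edgeR adjusted p = 0.0165). In FOXL2 WT + FOXO1 its value of -0.25 was not called (edgeR adjusted p = 0.0608). None of the 8 was called between FOXL2 C134W and FOXL2 WT, with a median log2 fold change of 0.01.

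Genes that act around the integrins were counted in the same comparison. Among 15 activators, adaptors and inhibitors, all tested, 4 were called in FOXL2 C134W against FOXL2 WT, beside 11.2% of all tested genes. TLN1, the talin that opens integrins from the inside, was at 0.44 (SE 0.05, edgeR adjusted p = 6.39e-05), and its relative TLN2 at 0.35 (SE 0.10, edgeR adjusted p = 0.026). FLNA, an actin crosslinker that competes with talin for the beta tail, was at 0.47 (SE 0.05, edgeR adjusted p = 6.44e-06). CD63, a tetraspanin, was lower, at -0.19 (SE 0.06, edgeR adjusted p = 0.039). The median of the 15 was -0.04, beside -0.01 for all genes. Against Vectors, the tetraspanins CD9 and CD82 were called lower in all 4 conditions, CD82 with log2 fold changes from -0.76 to -0.48 and CD9 from -0.31 to -0.21. Of all tested genes, 1.21% were called lower in all 4.

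Of 25 adhesion complex genes, all tested, 8 were called in FOXL2 C134W against FOXL2 WT and all 8 were higher, against 7.13% of all tested genes called higher. These were the tensins TNS1 (0.50), TNS2 (0.49) and TNS3 (0.25), which link integrin tails to actin, the alpha-actinins ACTN1 (0.25) and ACTN4 (0.31), and the LIM and adaptor proteins PXN (0.14), TGFB1I1 (0.21) and ZYX (0.26), given as log2 fold changes with an edgeR adjusted p of at most 0.0232. The median of the 25 was 0.10. Against Vectors, 14 of the 25 were called in FOXL2 C134W, all higher, against 7.48% of all genes called higher. With the length offset, 6 of these 8 were still called higher between mutant and wild type, and PXN and TNS3 were not.

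Of 31 ligand genes, 29 were tested and 10 were called in FOXL2 C134W against FOXL2 WT, all higher, against 7.13% of all tested genes called higher, with a median over the 29 of 0.17. FN1, the fibronectin that ITGA5 binds, was at 2187 CPM in FOXL2 C134W against 1771 CPM in FOXL2 WT (0.30, SE 0.05, edgeR adjusted p = 0.00101). LAMA5, a laminin chain of basement membranes read by ITGA3 and ITGA6, was at 0.64 (SE 0.08, edgeR adjusted p = 0.000114), LAMA4 at 0.39 and LAMB1 at 0.22. Of the collagens bound by ITGA1, ITGA2 and ITGA11 or laid down with them, COL5A1 was at 0.56, COL4A2 at 0.43, COL4A1 at 0.24 and COL1A1 at 0.23. The matricellular proteins TNC and THBS1 were at 0.27 and 0.24. Against Vectors, FOXL2 WT had 16 of the 29 called, 12 of them lower, against 6.07% of all tested genes called and 3.61% called lower. FN1 was among them at -0.29 (SE 0.05, edgeR adjusted p = 0.00257), while FN1 in FOXL2 C134W was at 0.02 against Vectors (edgeR adjusted p = 0.887). With the length offset, the same 10 ligands were called higher between mutant and wild type, and COL3A1 was called lower.

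With FOXO1 present, 0 of the ligands, adhesion complex genes and activators were called between mutant and wild type by edgeR, beside 0.144% of all tested genes. At an unadjusted p under 0.05 in edgeR there were 6, 6 and 9, and the share of all genes at that level was not computed. DESeq2 called 0, 1 and 1, given without the share of all genes it called. The interaction was called lower for 4 ligands, 2 adhesion complex genes and 2 activators, against 1.25% of all genes called lower. These were LAMA5 (-0.68, SE 0.12, edgeR adjusted p = 0.00957), COL5A1 (-0.55), COL4A2 (-0.37), COL1A1 (-0.34), TNS2 (-0.53), TNS1 (-0.33), TLN1 (-0.39) and FLNA (-0.35), none of them an integrin subunit. SMAD3 transcript was lower with FOXO1 than without it, so FOXO1 and the SMAD3 level cannot be told apart in these results. The lists were written with earlier results of these data known, and their counts are descriptions.

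**Figure D5:**
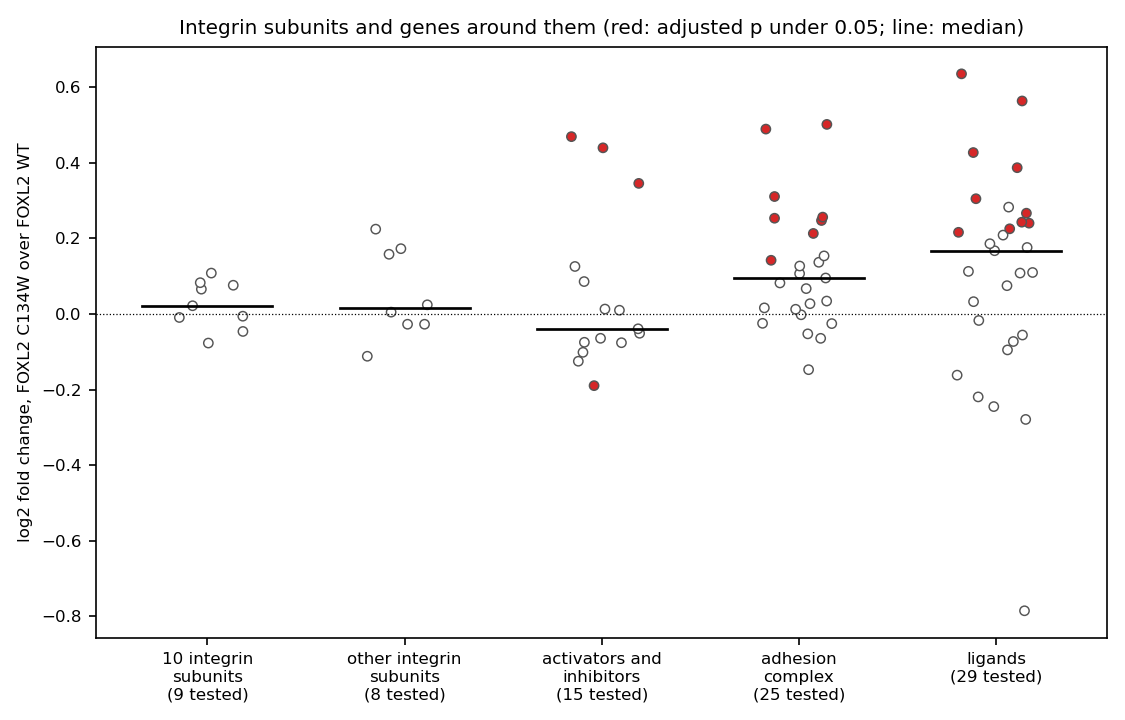
Log2 fold change of FOXL2 C134W over FOXL2 WT (vertical axis) for the tested genes of the 10 integrin subunits and of 4 lists around them, with red points for an adjusted p under 0.05 and lines for medians. The integrin subunits lie between -0.08 and 0.11 with no red point, and the ligands reach 0.64 with 10 red points.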

How the data were processed

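RNA of 15 HGrC1 libraries was examined, 3 for each of 5 conditions taken from the labels. The authors estimated transcript abundance with Salmon 1.1.0 on hg38 from single-end reads of a stranded mRNA kit. The deposited gene table holds their estimated counts per gene, rounded to whole numbers and not normalized. The deposited transcript tables hold TPM and estimated reads for 227063 transcripts, and TPM was summed per gene only for levels and transcript shares. The annotation release was not given in the sources used here, so transcripts and coordinates were read from GENCODE 44 (GRCh38) by identifier, which matched 98.4% of transcripts. Every column was mapped to a sample.

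Counts were tested in R 4.3.3 with edgeR 4.0.16 (filterByExpr, TMM, quasi-likelihood test, all 15 libraries and a term per condition in a single fit), and p-values were adjusted by Benjamini-Hochberg over 13868 genes, with 0.05 as threshold. Intervals are 95% intervals of that fit. Permutation tests were run with scipy 1.17.1. Library totals of 14962245 to 25339094 estimated counts set the depth, and with a count of 0 up to 3 counts are possible. The script was tested on simulated data. Alternatives were DESeq2 1.42.0, alone or with transcript length offsets (the route of the study), its size factors, filters of at least 1 count in any or 10 in every library, only the libraries compared, a replicate block, lowess offsets (span 0.3) for length, with or without GC content or the block, and fits that lacked a single library. All members were named by rule. Members and gene lists were chosen with earlier results of these data known. Counts over the 4 lists under the alternatives, and the tests of transcript shares, were added after seeing the data. Transcripts of the plasmids and of the cells' own genes were counted together.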

Additional observations from a re-analysis of the deposited data

How the results depend on the processing

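ITGA5 stayed called lower in all 4 comparisons with Vectors under each of the 10 alternatives and in each fit without a library. Over the 90 pairs of a member and a comparison, all alternatives and reduced fits gave 1303 values with the same sign and side of the threshold, 42 that lost a call, 42 that gained one and 106 that changed sign. None of the 106 concerned a called value, and the largest difference among them was 0.11 on the log2 scale as reported. The number of members called in FOXL2 WT + FOXO1 against Vectors was 2 with transcript length offsets in DESeq2 and 2 in a fit of only the libraries compared. In FOXL2 C134W + FOXO1 against Vectors it was 5 with the length offset, 6 with GC and length offsets and 5 with the replicate block and length offset. In FOXL2 C134W against FOXL2 WT these settings gave 2, 3 and 2. FOXL2 C134W + FOXO1 against FOXL2 WT + FOXO1 gave 1 with at least 1 count in any library, FOXL2 C134W + FOXO1 against FOXL2 WT gave 2 in DESeq2, 1 with that filter and 1 with GC and length offsets, FOXL2 WT + FOXO1 against FOXL2 WT gave 1 with transcript length offsets in DESeq2, and FOXL2 C134W + FOXO1 against FOXL2 C134W gave 1 with the length offset. These counts stand without the share of all genes called under the same setting, and the cause of the changes was not tested.

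Without single libraries the counts against Vectors ran from 2 to 4 in FOXL2 WT, 1 to 4 in FOXL2 C134W, 2 to 4 in FOXL2 WT + FOXO1 and 2 to 3 in FOXL2 C134W + FOXO1, and the other comparisons stayed at 0. Sign changes among the values printed were as follows. In FOXL2 C134W against Vectors, ITGB3 turned to -0.063 with the length offset, -0.075 with GC and length offsets and -0.064 with the block and length offset, and ran from -0.017 to 0.038 without single libraries. In FOXL2 WT + FOXO1 against Vectors, ITGB5 ran from -0.052 to 0.025 without single libraries. In FOXL2 C134W against FOXL2 WT, ITGA5 turned to 0.00032 in DESeq2, 0.00045 with its size factors and 0.0017 with at least 10 counts in every library, and ran from -0.022 to 0.0095 without single libraries. There, ITGB5 turned to 0.029 with transcript length offsets in DESeq2, to 0.0037 with GC and length offsets and ran from -0.075 to 0.0013 without single libraries, and ITGAV ran from -0.025 to 0.0058 without them. The length offset, the GC and length offsets and the block with the length offset gave -0.036, -0.035 and -0.036 for ITGB1 and -0.098, -0.098 and -0.097 for ITGA2, ITGA3 was at -0.0027 with GC and length offsets, and ITGA6 at -0.00034 with the length offset.

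The replicate letters did not pair the libraries, with a median correlation of 0.0036 between libraries of the same letter (range -0.164 to 0.166), and 5 of 15 libraries correlated best with their own letter. With the replicate block alone, the number of members called in the 4 comparisons with Vectors was 5, 5, 4 and 3, and 0 in the others. Counts over the lists moved more, for example between 8 and 14 ligands in FOXL2 C134W against FOXL2 WT over the alternatives and between 7 and 15 without single libraries, or between 8 and 15 adhesion complex genes in FOXL2 C134W against Vectors over the alternatives. The tested members had at least 361 counts in every library, and the part of depth in their spread was not tested. ITGA4, with 0 to 3 counts, was left undetermined.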
